A study of Mus musculus with 3 samples.

Results

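The 9 genes *Hnf4a*, *Lrp2*, *Cubn*, *Slc34a1*, *Slc3a1*, *Pdzk1*, *Fxyd2*, *Mep1a* and *Ttc36* were chosen by name, as genes that mark the maturing proximal tubule of the kidney, out of 32285 genes in the count matrices. They were followed in single cells of whole E15.5 mouse kidneys (embryonic days are written with an E), profiled by 10x Genomics droplet sequencing, which counts the 3′ ends of transcripts through unique molecular identifiers (UMIs). The study asked what a mutation of ENL, a chromatin reader encoded by *Mllt1*, does to kidney development, and whether TDI-11055, a small molecule that blocks the acyl-binding pocket of ENL, counters it. Each library pooled embryos, fewer for Enl-WT than for Enl-T1 and in a number not given in the sources used here for Enl-T1 TDI-11055. No map ties cells to embryos, so that every group was 1 library, no test between groups was possible, and every interval below is an exact 95% interval of counting error only.

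The Enl-WT library came from *Enl*+/+ *Wt1*GFPCre/+ embryos. The Enl-T1 library came from *Enl* flox-T1/+ *Wt1*GFPCre/+ embryos, in which Cre recombinase switches on the T1 mutation from 1 copy of *Enl*. The Enl-T1 TDI-11055 library came from embryos of the mutant genotype whose mothers were given 100 mg/kg TDI-11055 by mouth daily from E10.5 to E14.5, and the other two groups are labelled as untreated. All groups carried the Cre driver, which is inserted into *Wt1*, costs 1 working copy of that gene and is active in nephron and stroma, so cells outside these lineages need not carry the active mutation. The level of *Mllt1* over all kept cells was 25.1 UMIs in 1000000 (CPM) in Enl-WT, 17.1 CPM in Enl-T1 and 18.8 CPM in Enl-T1 TDI-11055, but 3′ counts cannot tell the alleles apart, so this does not check the labels.

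The proximal tubule is the first segment of the nephron after the glomerulus and takes back most of the filtered water, salt, phosphate, sugar, amino acids and protein. It arises from committed nephron cells through the renal vesicle and the S-shaped body, and HNF4A, a nuclear receptor, is required in the mouse for proximal tubule cells to form and to acquire their brush border and transporters. HNF1 factors act beside HNF4A on many genes of this segment.

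Reference promoters of the genes are shown first, because the genes are described together and HNF4A is itself one of them. RefSeq promoters (GRCm38.p6, 250 bases before to 50 bases after a start) were found for 7 of the 9 genes, with 9 promoters in all. They were searched on both strands for GTTAAT, a core of HNF1 sites, and for CAAAGTC and CAAAGGT, a pair of forms of the HNF4 core. None of the 3 motifs overlapped another within these promoters. The 5 promoters with a match are printed 5′ to 3′ on the strand of the gene, with the matched letters in capitals (in the reverse complement where the match is on the other strand). They are a downstream start of *Hnf4a* (chr2:163546905-163547204, plus strand), *Cubn* (chr2:13491827-13492126, minus strand), *Slc34a1* (chr13:55399398-55399697, plus strand), *Slc3a1* (chr17:85028097-85028396, plus strand) and a start of *Pdzk1* (chr3:96829815-96830114, plus strand).
Hnf4a: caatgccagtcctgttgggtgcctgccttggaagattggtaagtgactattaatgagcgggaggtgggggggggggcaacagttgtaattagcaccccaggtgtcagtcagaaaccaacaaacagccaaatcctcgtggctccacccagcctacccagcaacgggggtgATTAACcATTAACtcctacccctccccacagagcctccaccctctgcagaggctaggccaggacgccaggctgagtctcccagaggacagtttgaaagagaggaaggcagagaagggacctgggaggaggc
Cubn: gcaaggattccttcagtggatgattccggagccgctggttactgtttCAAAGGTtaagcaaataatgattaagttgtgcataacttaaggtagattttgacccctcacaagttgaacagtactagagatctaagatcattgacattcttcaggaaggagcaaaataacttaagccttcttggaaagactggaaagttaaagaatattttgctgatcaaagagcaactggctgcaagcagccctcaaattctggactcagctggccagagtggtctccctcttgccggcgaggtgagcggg
Slc34a1: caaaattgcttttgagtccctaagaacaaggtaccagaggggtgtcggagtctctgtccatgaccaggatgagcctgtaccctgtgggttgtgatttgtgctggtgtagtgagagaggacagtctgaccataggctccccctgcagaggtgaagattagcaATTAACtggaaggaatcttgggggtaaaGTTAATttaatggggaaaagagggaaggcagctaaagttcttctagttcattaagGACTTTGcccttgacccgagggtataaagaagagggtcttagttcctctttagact
Slc3a1: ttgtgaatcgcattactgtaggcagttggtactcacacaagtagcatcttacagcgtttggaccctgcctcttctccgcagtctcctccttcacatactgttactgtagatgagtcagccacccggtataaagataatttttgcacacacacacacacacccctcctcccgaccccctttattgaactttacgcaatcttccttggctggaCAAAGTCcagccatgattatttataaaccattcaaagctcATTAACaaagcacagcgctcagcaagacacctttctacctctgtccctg
Pdzk1: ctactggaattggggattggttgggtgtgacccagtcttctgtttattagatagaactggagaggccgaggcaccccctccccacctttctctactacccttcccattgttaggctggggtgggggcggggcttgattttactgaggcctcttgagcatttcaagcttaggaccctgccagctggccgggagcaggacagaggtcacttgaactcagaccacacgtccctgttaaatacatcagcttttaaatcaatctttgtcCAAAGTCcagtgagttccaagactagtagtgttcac

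The *Hnf4a* sequence held GTTAAT in 2 places on the other strand, from -81 to -76 and from -74 to -69 relative to the start. The *Slc34a1* sequence held GTTAAT from -89 to -84 and from -61 to -56, and CAAAGTC across the start. The *Slc3a1* sequence held CAAAGTC from -39 to -33 and GTTAAT from 2 to 7, the *Pdzk1* sequence held CAAAGTC from 15 to 21, and the *Cubn* sequence held CAAAGGT from -203 to -197. GTTAAT was in 3 of the 9 promoters against 7.10% of 32851 mouse promoters of the same length, CAAAGTC in 3 of 9 against 4.44%, and CAAAGGT in 1 of 9 against 4.09%. The letters were absent from the promoters of *Lrp2* and *Mep1a* and from the other start of *Hnf4a* and of *Pdzk1*, which says only that these letters are not in these windows.

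Cells with 1000 to 6000 detected genes and at most 10% mitochondrial UMIs were kept, which left 5233 cells of Enl-WT, 4144 of Enl-T1 and 2754 of Enl-T1 TDI-11055. A kept cell had a median of 5090, 9391 and 16932 UMIs in the same order, so shares of cells with a UMI are given after each cell was thinned to 2000 UMIs. From 5 to 8 kept barcodes were shared by each pair of libraries. Cells called female (by *Xist* and Y-linked genes) were 26.5%, 73.3% and 35.1% of the kept cells in the same order. Cell classes were rebuilt by clustering without the 9 genes, and named with the suffix "-like" from markers of which none is one of the 9.

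The proximal tubule-like class had *Sult1d1*, a sulfotransferase, and *Fut9*, a fucosyltransferase, among its leading genes. It held 262 of 2218 nephron cells in Enl-WT, or 11.8% (10.498% to 13.2%), 31 of 1299 in Enl-T1, or 2.39% (1.63% to 3.37%), and 65 of 1340 in Enl-T1 TDI-11055, or 4.85% (3.76% to 6.14%). The share was thus lowest in Enl-T1 and between the others in Enl-T1 TDI-11055, with intervals that did not overlap. The order held but the shares moved with the settings, to 6.79%, 0.530% and 1.40% in the same order without an upper gene limit and to 15.2%, 2.85% and 8.36% with finer nephron clustering (resolution 1.2). Barcodes over the mitochondrial limit, left out here, held 32.8%, 5.91% and 1.29% of all UMIs of the 9 genes in the same order, so this limit cost Enl-WT the most. Barcodes over 6000 genes, also left out, held 1056, 542 and 1186 UMIs of the 9 genes, beside 12356, 911 and 1584 in kept cells. Relative to the kept cells, the gene limit thus cost the mutant libraries more. The name fits the 3 libraries unequally. The summed level of the 12 proximal tubule markers in the class was 2330 CPM in Enl-WT, 387 CPM in Enl-T1 and 527 CPM in Enl-T1 TDI-11055, with *Fbp1* and *Miox* at 0 in Enl-T1 and *Miox* at 0 in Enl-T1 TDI-11055. Of these markers *Osr2* differed little, at 183, 175 and 212 CPM. The 8 markers of committed nephron cells summed to 625 CPM in Enl-WT, 2005 CPM in Enl-T1 and 1768 CPM in Enl-T1 TDI-11055, and so exceeded the proximal tubule markers in both mutant libraries. In both mutant libraries the class thus holds cells that clustered with Enl-WT proximal tubule-like cells but in which these markers were not the highest list.

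Before the groups are compared, the genes are placed in the Enl-WT kidney. All 9 genes had their highest level in the proximal tubule-like class of Enl-WT, with an interval apart from the next class. Since the class was built from genes that go along with these 9, this is a description. The next class was committed nephron-like for 7 of them, and distal tubule/loop of Henle-like for *Fxyd2* and *Ttc36*. The class gave 79.4% of all UMIs of the 9 genes from 5.01% of the kept cells. The highest shares were those of *Slc34a1* (93.1%), *Mep1a* (92.3%) and *Cubn* (91.2%), and the lowest that of *Fxyd2* (69.2%), which is also used by the distal nephron.

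**Figure D1:**
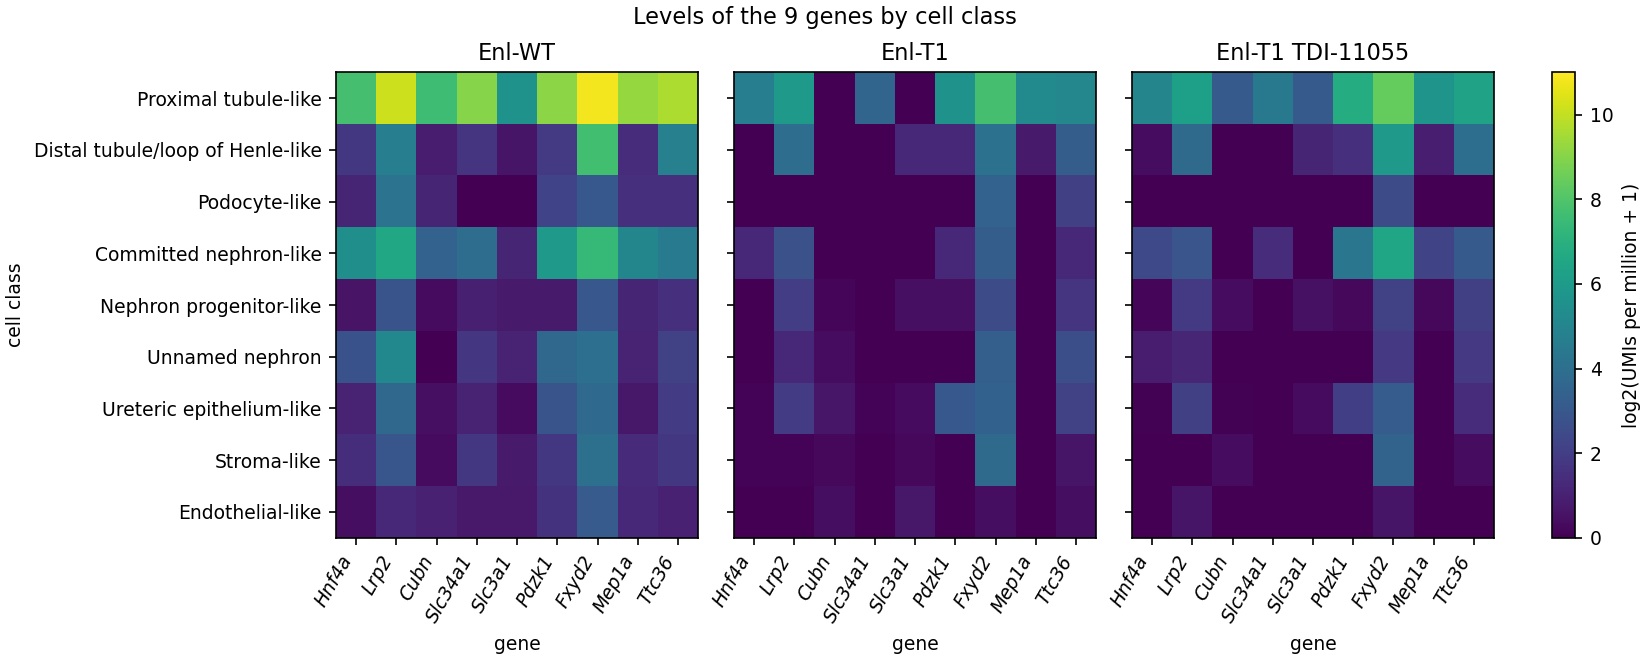
Level of each of the 9 genes (columns) in each cell class (rows), 1 map per library, coloured by log2(CPM + 1) as in the bar. The brightest fields lie in the proximal tubule-like row of Enl-WT, and the same row is darker for every gene in both mutant libraries.

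Coordinates of the genes below are those of GENCODE M21 on GRCm38 (mm10). *Hnf4a* (ENSMUSG00000017950, chr2:163506808-163572910, plus strand), the nuclear receptor, was at 217 CPM (363 UMIs) in the proximal tubule-like cells of Enl-WT, 25.1 CPM (9 UMIs) in Enl-T1 and 30.8 CPM (24 UMIs) in Enl-T1 TDI-11055. The level in Enl-T1 was 0.116 times that in Enl-WT (0.0524 to 0.222). The level in Enl-T1 TDI-11055 was 1.23 times that in Enl-T1 (0.551 to 3.0), an interval that holds 1 and that also allows a 3-fold difference. *Hnf4a* was thus low in both mutant libraries, and a difference between these was not detectable at this depth.

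*Lrp2* (ENSMUSG00000027070, chr2:69424340-69586065, minus strand) encodes megalin and *Cubn* (ENSMUSG00000026726, chr2:13276338-13491813, minus strand) encodes cubilin, the receptors with which the proximal tubule takes up filtered protein. *Lrp2* was at 1158 CPM (1939 UMIs) in Enl-WT, 61.3 CPM (22 UMIs) in Enl-T1 and 73.1 CPM (57 UMIs) in Enl-T1 TDI-11055, with a ratio of 0.0529 (0.0331 to 0.0803) for Enl-T1 over Enl-WT and 1.19 (0.718 to 2.05) for the treated over the untreated mutant. *Cubn* was at 191 CPM (320 UMIs) in Enl-WT, had no UMI in the 31 cells of Enl-T1 and 6 UMIs (7.69 CPM) in the 65 cells of Enl-T1 TDI-11055. Against a floor of 3 UMIs over the class, *Cubn* in Enl-T1 was at least 22.9-fold lower than in Enl-WT, while the exact two-sided interval of the ratio reaches 0.0541. Both receptors were therefore far below Enl-WT in either mutant library, and the 6 UMIs of *Cubn* against 0 do not separate the treated from the untreated mutant (the lower bound of the ratio is 0.542).

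Of the transporters, *Slc34a1* (ENSMUSG00000021490, chr13:55398187-55415592, plus strand) encodes the main sodium-phosphate cotransporter of the brush border, and *Slc3a1* (ENSMUSG00000024131, chr17:85028376-85064236, plus strand) encodes the heavy subunit of the carrier for cystine and dibasic amino acids. *Slc34a1* was at 509 CPM (853 UMIs) in Enl-WT, 11.1 CPM (4 UMIs) in Enl-T1 and 20.5 CPM (16 UMIs) in Enl-T1 TDI-11055. Its ratio of Enl-T1 over Enl-WT, 0.0219 (0.00594 to 0.0562), was the lowest of the 7 genes with a UMI in both. *Slc3a1* was at 47.2 CPM (79 UMIs), 0 UMIs and 7.69 CPM (6 UMIs) in the same order, so that against the same floor Enl-T1 was at least 5.65-fold lower than Enl-WT, with an exact interval of the ratio up to 0.223. It was the only one of the 9 below the floor of 50 CPM (mean of the 3 libraries in the class) that was set for counts of genes. For both transporters the interval of treated over untreated mutant holds 1, with a ratio of 1.84 (0.594 to 7.57) for *Slc34a1*.

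*Pdzk1* (ENSMUSG00000038298, chr3:96829284-96870926, plus strand) encodes a scaffold that holds transporters in the brush border, and *Fxyd2* (ENSMUSG00000059412, chr9:45399669-45410278, plus strand) the gamma subunit that adjusts the sodium pump. *Pdzk1* was at 544 CPM (911 UMIs) in Enl-WT, 47.3 CPM (17 UMIs) in Enl-T1 and 113 CPM (88 UMIs) in Enl-T1 TDI-11055. *Fxyd2* was at 1779 CPM (2978 UMIs), 217 CPM (78 UMIs) and 332 CPM (259 UMIs). In Enl-T1 both were below Enl-WT, with a ratio of 0.0870 (0.0505 to 0.140) and 0.122 (0.0963 to 0.153), and both were higher in Enl-T1 TDI-11055 than in Enl-T1, by 2.38-fold (1.41 to 4.27) and 1.53-fold (1.18 to 2.00), beyond counting error. They also had the highest ratios of Enl-T1 TDI-11055 over Enl-WT, 0.207 and 0.187, so that the treated level still lay far below that of Enl-WT.

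*Mep1a* (ENSMUSG00000023914, chr17:43474324-43502812, minus strand) encodes the alpha subunit of meprin, a metalloprotease of the brush border, and *Ttc36* (ENSMUSG00000039438, chr9:44799397-44803072, minus strand) a protein with tetratricopeptide repeats. *Mep1a* was at 620 CPM (1038 UMIs) in Enl-WT, 36.2 CPM (13 UMIs) in Enl-T1 and 51.3 CPM (40 UMIs) in Enl-T1 TDI-11055. *Ttc36* was at 792 CPM (1326 UMIs), 33.4 CPM (12 UMIs) and 80.8 CPM (63 UMIs). The ratio of Enl-T1 over Enl-WT was 0.0584 (0.0310 to 0.10) for *Mep1a* and 0.0422 (0.0218 to 0.0740) for *Ttc36*. *Ttc36* was 2.42-fold higher in Enl-T1 TDI-11055 than in Enl-T1 (1.29 to 4.92), and *Mep1a* 1.42-fold (0.742 to 2.89), so only for *Ttc36* of this pair did the interval exclude 1.

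**Figure D2:**
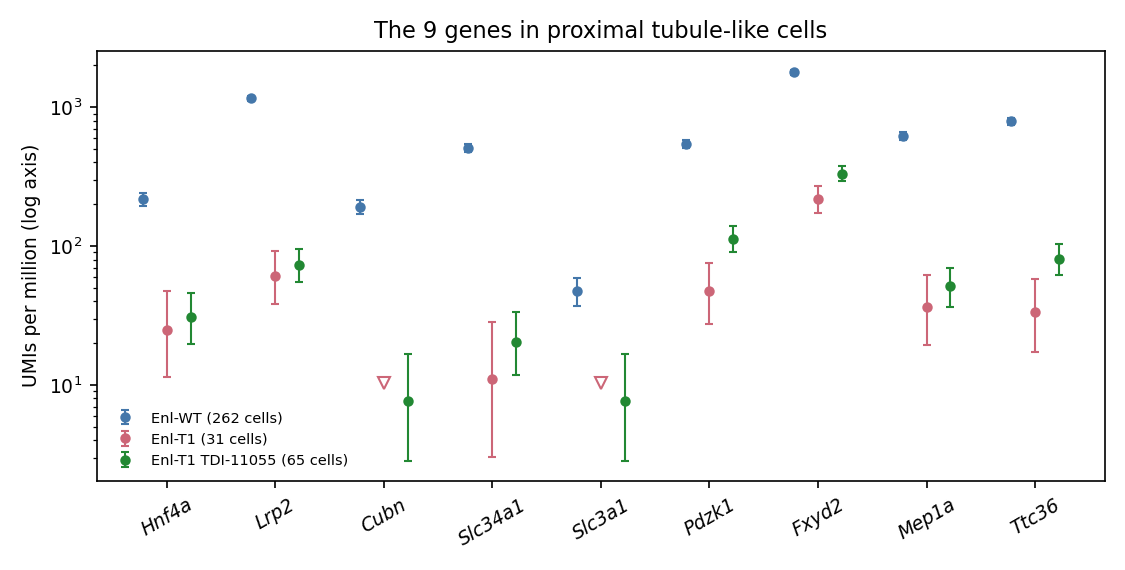
Level of the 9 genes in proximal tubule-like cells (CPM on a log axis, 1 point per library with its exact 95% counting interval). The Enl-WT point of each gene lies above both mutant points, and the open triangles for *Cubn* and *Slc3a1* in Enl-T1 are the upper ends of the exact intervals of 0 UMIs.

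Counted together, 8 of the 9 genes passed the 50 CPM floor in the class, and in Enl-T1 over Enl-WT 8 of 8 were at least 2-fold lower and 0 higher, against 17.1% lower and 5.52% higher among the 3225 genes that passed. The floor is on the mean of the libraries, so most of the 8 passed through their Enl-WT level (in Enl-T1 only *Lrp2* and *Fxyd2* were above 50 CPM), and the count is a description. With zero counts set at their bound, the median log2 ratio of the 9 genes was -4.10, against -0.24 for all genes. In Enl-T1 TDI-11055 over Enl-T1, 3 of 8 were at least 2-fold higher and 0 lower, against 3.53% higher and 2.26% lower among all genes. These were *Pdzk1* and *Ttc36*, with 17 and 12 UMIs in Enl-T1, and *Cubn*, by 6 UMIs against 0. The floor took in the Enl-WT level for all 3 comparisons, so each of these counts is a description. The median log2 ratio of the 9 genes was 0.50 against 0.03 for all genes. It was 0.88 where both ratios over 0 UMIs were ranked above all others instead of set at their bound. In Enl-T1 TDI-11055 over Enl-WT, 8 of 8 were at least 2-fold lower and 0 higher, against 18.7% lower and 5.18% higher among all genes, with a median log2 ratio of -3.29 against -0.22. That median was -1.81 without an upper gene limit, -2.41 in female cells and -4.90 in male cells. The 3 comparisons share libraries and are not independent of each other.

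**Figure D3:**
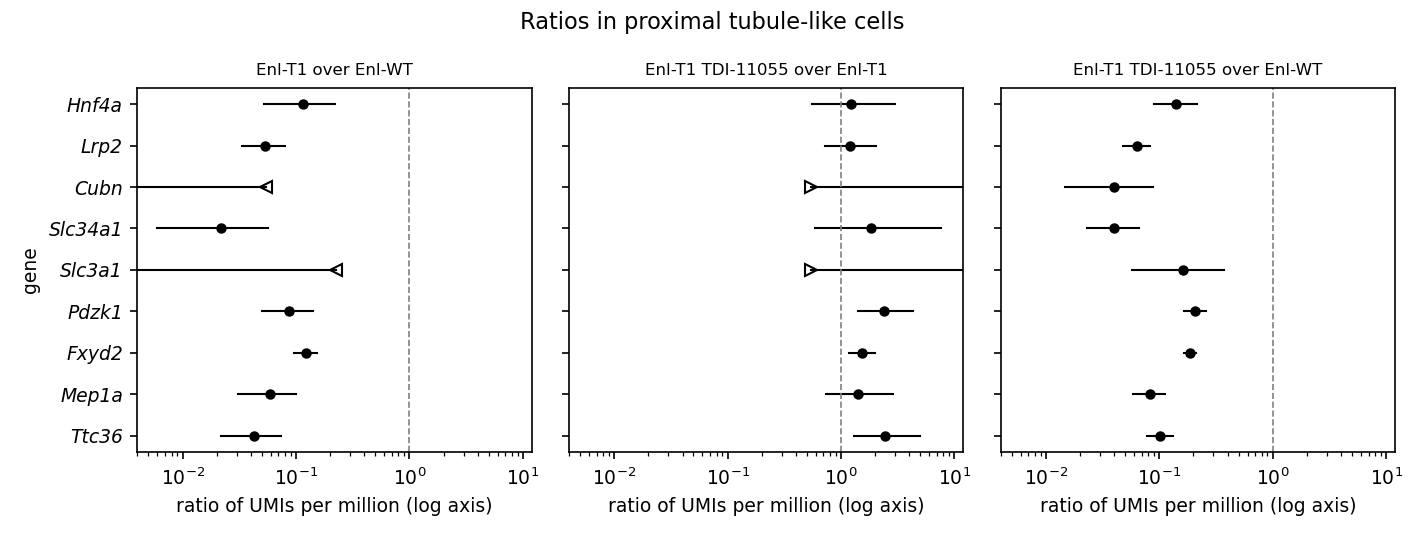
Ratio of levels in proximal tubule-like cells for each of the 9 genes and the 3 pairs of libraries (log axis, bars are exact 95% counting intervals, the dashed line marks equal levels, open triangles are the ends of the exact intervals where Enl-T1 has 0 UMIs). Ratios of each mutant library over Enl-WT lie left of the line, and among those of the treated over the untreated mutant *Pdzk1*, *Fxyd2* and *Ttc36* have their whole interval to its right.

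Several properties of the cells moved with the group, and their part in these ratios was not tested. Of the 8 committed nephron markers summed above, 1 had no UMI in Enl-WT, 0 lacked one in Enl-T1 and 1 lacked one in Enl-T1 TDI-11055, and *Ccnd1*, which encodes cyclin D1, was at 135, 811 and 690 CPM. The median depth of the proximal tubule-like cells was 5243 UMIs in Enl-WT, 10740 UMIs in Enl-T1 and 8791 UMIs in Enl-T1 TDI-11055, and their median mitochondrial share was 6.86%, 5.54% and 2.25%. Of these cells 66 of 262, 30 of 31 and 22 of 65 were called female, and 119, 0 and 23 male. Distal tubule/loop of Henle-like markers summed to 538, 150 and 295 CPM in the class, and erythroid-like markers to 1724, 613 and 1098 CPM. Stroma-like markers (43.0, 78.0 and 30.8 CPM) and endothelial-like markers (28.7, 66.8 and 42.3 CPM) were low throughout, and podocyte-like, ureteric epithelium-like and immune-like markers summed to at most 68.1 CPM each.

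The proximal tubule-like class was not uniform. Finer clustering, added after the data were seen, split it into cells led by *Osr2*, with *Vcam1* and *Cdh6*, and cells with *Sult1d1*, *Aadat* and *Fut9* among their leading genes, called *Sult1d1*-led here. The *Osr2*-led cluster reached past the class, since 193 of its 322 cells were in the class and the others (76 of Enl-WT, 6 of Enl-T1 and 47 of Enl-T1 TDI-11055), not counted here, were committed nephron-like. The *Sult1d1*-led cells were 138 of 262 in Enl-WT, or 52.7% (46.4% to 58.8%), 7 of 31 in Enl-T1, or 22.6% (9.59% to 41.1%), and 20 of 65 in Enl-T1 TDI-11055, or 30.8% (19.9% to 43.4%). The class was thus split about evenly in Enl-WT and was mostly *Osr2*-led in both mutant libraries. In Enl-WT all 9 genes were higher in the *Sult1d1*-led cells, but unequally. *Cubn* was 22.2-fold higher there (11.6 to 49.1), *Ttc36* 18.3-fold (13.6 to 25.2), *Mep1a* 13.6-fold, *Slc3a1* 12.1-fold and *Slc34a1* 11.8-fold, whereas *Fxyd2*, *Lrp2*, *Pdzk1* and *Hnf4a* were 4.66-fold, 4.33-fold, 3.16-fold and 2.51-fold higher (1.94 to 3.29 for *Hnf4a*). In *Osr2*-led cells of Enl-WT these 4 were at 551 CPM (*Fxyd2*), 383 CPM (*Lrp2*), 235 CPM (*Pdzk1*) and 113 CPM (*Hnf4a*). The others were lower there, with *Mep1a* at 71.7 CPM, *Ttc36* at 68.7 CPM, *Slc34a1* at 67.1 CPM, *Cubn* at 13.7 CPM (9 UMIs) and *Slc3a1* with 4 UMIs. The split used genes that go along with the 9, so this order is a description.

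**Figure D4:**
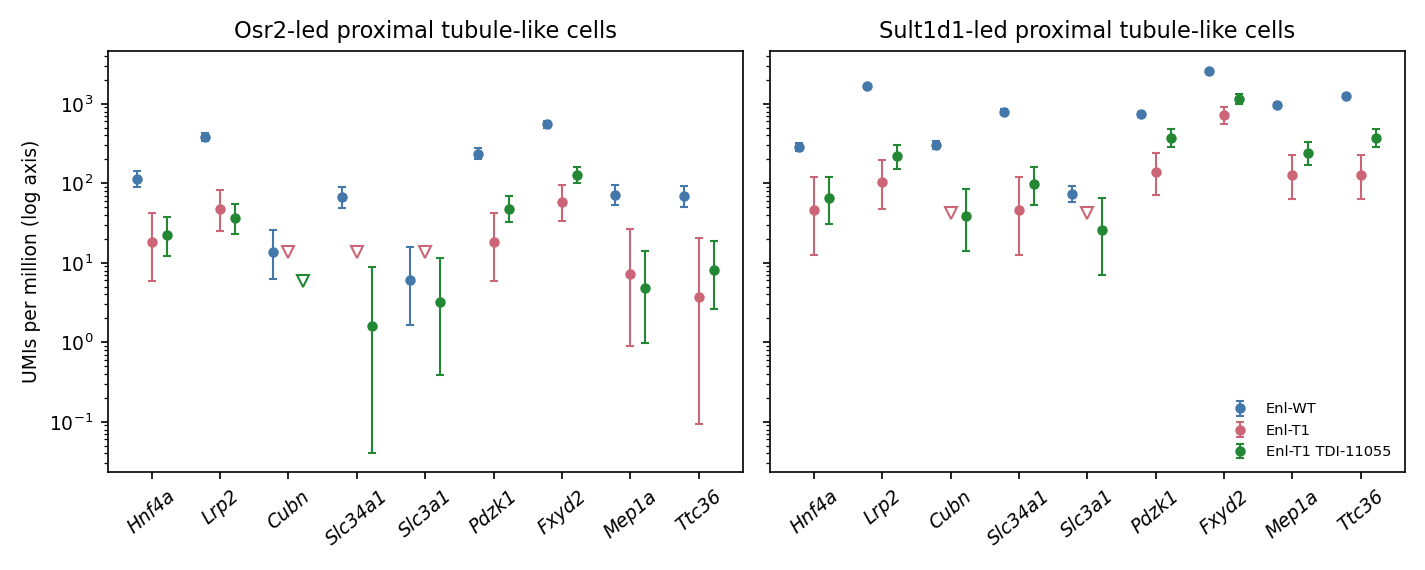
Level of the 9 genes (CPM on a log axis, with exact 95% counting intervals) in *Osr2*-led and *Sult1d1*-led proximal tubule-like cells of each library. Enl-WT levels are higher in the *Sult1d1*-led cells, Enl-WT points lie above those of the mutant libraries in each set, and open triangles are the upper ends of the exact intervals of 0 UMIs.

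The low levels of Enl-T1 were also seen inside each set of cells. Within *Osr2*-led cells, *Hnf4a* was at 113 CPM in Enl-WT and 18.3 CPM in Enl-T1, a ratio of 0.162 (0.0512 to 0.396), and *Fxyd2* at 551 and 58.6 CPM, a ratio of 0.106 (0.0602 to 0.175). Within *Sult1d1*-led cells, of which Enl-T1 has only 7, *Lrp2* was at 1657 CPM in Enl-WT and 105 CPM in Enl-T1, a ratio of 0.0631 (0.0288 to 0.120), and *Fxyd2* at 2568 and 720 CPM, a ratio of 0.281 (0.214 to 0.361). For the 7 genes with a UMI in this class of Enl-T1 the interval lay below 1 in both sets of cells. Within *Sult1d1*-led cells, however, the ratios of *Fxyd2*, *Pdzk1* (0.188), *Mep1a* (0.131), *Ttc36* (0.102) and *Slc34a1* (0.0585) were each over 2 times those in the class as a whole, and for *Fxyd2* the intervals did not overlap. Committed nephron markers still differed inside the sets, at 1045, 2403 and 2054 CPM in *Osr2*-led cells and 354, 744 and 618 CPM in *Sult1d1*-led cells. In the latter, distal tubule/loop of Henle-like markers summed to 704, 232 and 676 CPM and erythroid-like markers to 1552, 1790 and 3670 CPM in the same order, and the part of these in the ratios was not tested.

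Inside the *Sult1d1*-led cells, the genes that were higher in Enl-T1 TDI-11055 than in Enl-T1 with an interval above 1 were again *Pdzk1* (373 against 139 CPM, 2.68-fold, 1.42 to 5.48), *Ttc36* (373 against 128 CPM, 2.92-fold, 1.52 to 6.17) and *Fxyd2* (1153 against 720 CPM, 1.60-fold, 1.19 to 2.17). The values of the other 6 genes were also higher in the treated mutant, among them *Lrp2* (219 against 105 CPM, 2.09-fold, 0.983 to 4.96), but with intervals that hold 1. *Pdzk1* in these cells of Enl-T1 TDI-11055 was at 0.503 times (0.378 to 0.657) and *Fxyd2* at 0.449 times (0.384 to 0.522) the Enl-WT level, against 0.132 times for *Lrp2* (0.0912 to 0.185) and 0.122 times for *Slc34a1* (0.0678 to 0.202). The scaffold and the pump subunit were thus nearer to Enl-WT in the treated *Sult1d1*-led cells than the endocytic receptor and the phosphate transporter, by intervals that do not overlap. By the ratios given above, they were also nearer to Enl-WT in these cells of untreated Enl-T1, so this order is not particular to the treated library. In *Osr2*-led cells *Fxyd2* was at 128 CPM (80 UMIs) in the treated against 58.6 CPM (16 UMIs) in the untreated mutant. *Pdzk1* was there at 48.0 CPM (30 UMIs) against 18.3 CPM (5 UMIs). *Lrp2* gave a ratio of treated over untreated mutant below 1 in these cells, 0.773 (0.376 to 1.66), as did *Mep1a* on 3 against 2 UMIs.

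The genes differed between libraries outside the proximal tubule-like class as well. In committed nephron-like cells, *Fxyd2* was at 162 CPM in Enl-WT, 8.37 CPM (6 UMIs in 54 cells) in Enl-T1 and 89.8 CPM (165 UMIs in 208 cells) in Enl-T1 TDI-11055, and *Pdzk1* at 59.5, 1.39 (1 UMI) and 19.1 CPM. Cells of the *Osr2*-led cluster were 76 of 226, 6 of 54 and 47 of 208 of this class in the same order, and their part in these levels was not tested. In distal tubule/loop of Henle-like cells, *Fxyd2* was at 205 CPM in Enl-WT, 16.4 CPM in Enl-T1 and 59.1 CPM in Enl-T1 TDI-11055, which is 3.6-fold (2.33 to 5.81) higher in the treated than in the untreated mutant. The lower level of *Fxyd2* in Enl-T1 was therefore not confined to the proximal tubule-like class, and it was nearer to Enl-WT with TDI-11055 in these classes as well. In ureteric epithelium-like cells, by contrast, *Pdzk1* was at 6.17, 7.14 and 3.16 CPM and *Fxyd2* at 12.6, 9.67 and 8.12 CPM. In endothelial-like cells, which should lack them, *Pdzk1* was at 2.08, 0 and 0 CPM and *Fxyd2* at 7.97, 0.313 and 0.559 CPM, while *Fxyd2* in stroma-like cells was at 15.7, 13.1 and 10.3 CPM. In both mutant libraries the ureteric levels thus lay above the endothelial ones, with intervals apart, but those of *Fxyd2* lay below the stromal values.

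In Enl-T1, 7 of the 9 genes were highest in the proximal tubule-like class, with intervals apart from the next class. The exceptions were *Cubn* and *Slc3a1*, without a UMI there. In Enl-T1 TDI-11055 all 9 genes were highest in this class, although the interval of *Slc3a1* overlapped that of the next. The class gave 17.0% of all UMIs of the 9 genes in Enl-T1 and 35.3% of those in Enl-T1 TDI-11055, while ureteric epithelium-like cells gave 40.7% and 19.8%. Distal tubule/loop of Henle-like cells gave 6.59% and 18.9%, and committed nephron-like cells 1.43% and 15.4%. Levels summed over a whole mutant library are thus in large part UMIs of other classes. Not all of these came at levels of a few CPM, since *Fxyd2* in Enl-T1 TDI-11055 was at 59.1 CPM in distal tubule/loop of Henle-like and 89.8 CPM in committed nephron-like cells.

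In sums over all kept cells, fewer cells of a type and less RNA per cell cannot be told apart. There, all 9 genes were at least 2-fold lower and 0 higher in Enl-T1 over Enl-WT. Among the 14009 genes past a floor of 1 CPM, 9.34% were at least 2-fold lower and 4.05% at least 2-fold higher. This floor, too, was set on a mean level. *Hnf4a*, *Cubn*, *Slc34a1* and *Slc3a1* stayed under 1 CPM in either mutant library and passed through their Enl-WT level. Counts against Enl-WT are therefore a description here as well. *Hnf4a* was at 14.8 CPM in Enl-WT, 0.271 CPM in Enl-T1 and 0.854 CPM in Enl-T1 TDI-11055, *Slc34a1* in the same order at 28.6, 0.113 and 0.439 CPM, and *Mep1a* at 35.1, 0.317 and 1.2 CPM. These were the 3 genes that were at least 2-fold higher in Enl-T1 TDI-11055 than in Enl-T1 (3.15-fold, 3.88-fold and 3.79-fold), against 2.16% of all genes (0 were at least 2-fold lower, against 7.59%), and 8 of 9 had a ratio over 1, the exception being *Cubn* (0.802). The 3 genes had 12, 5 and 14 UMIs in Enl-T1 and 37, 19 and 52 UMIs in Enl-T1 TDI-11055. They passed the floor through their Enl-WT level, so this count is a description too. All 9 remained at least 2-fold lower in Enl-T1 TDI-11055 than in Enl-WT and 0 higher, against 19.7% lower and 2.3% higher among all genes. The median log2 ratio of the 9 genes in the 3 comparisons was -4.81, 0.80 and -4.02, beside -0.31, -0.05 and -0.38 for all genes.

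A count per cell needs no cell class. After each cell was thinned to 2000 UMIs, at least 3 of the 9 genes were detected in 192 of 5137 cells in Enl-WT, or 3.74% (3.24% to 4.29%), in 2 of 4129 in Enl-T1, or 0.0484% (0.00587% to 0.175%), and in 13 of 2734 in Enl-T1 TDI-11055, or 0.475% (0.253% to 0.812%). Without thinning the shares were 5.71%, 0.434% and 1.56%. No stroma-like, endothelial-like or ureteric epithelium-like cell reached 3 genes after thinning in any library. Cells that used several of the genes at once were therefore rarest in Enl-T1, and 171 of the 192 in Enl-WT, 2 of 2 in Enl-T1 and 12 of 13 in Enl-T1 TDI-11055 were proximal tubule-like, most others being committed nephron-like.

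Within the proximal tubule-like class, at least 3 genes were detected in 171 of 259 thinned cells in Enl-WT, or 66.0% (59.9% to 71.8%), 2 of 30 in Enl-T1, or 6.67% (0.818% to 22.1%), and 12 of 65 in Enl-T1 TDI-11055, or 18.5% (9.92% to 30.03%). The median cell had 4, 0 and 1 of the 9 genes. *Fxyd2* was detected in 73.0%, 33.3% and 47.7% of these cells, *Lrp2* in 69.9%, 10% and 12.3%, and *Pdzk1* in 57.9%, 10% and 20%. *Hnf4a* was detected in 29.0%, 3.33% and 7.69%, so that the lower levels in the mutant libraries came with fewer cells that had any UMI. In endothelial-like cells, which should lack these genes, any of the 9 was detected in 2.08%, 0% and 0% of thinned cells (median depths 5661, 10456 and 14336 UMIs before thinning). The 0 of 257 and 0 of 116 allow shares of up to 1.43% and 3.13% by the exact interval.

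**Figure D5:**
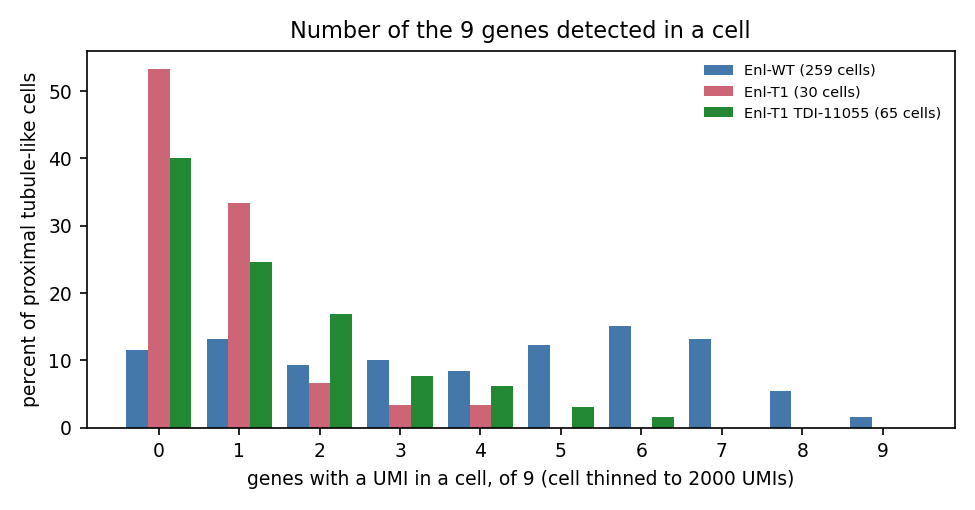
Share of proximal tubule-like cells (percent) by the number of the 9 genes detected after thinning to 2000 UMIs, for each library. The Enl-WT cells spread from 0 to 9 genes with a median of 4, and no Enl-T1 cell has over 4.

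Other genes of the proximal tubule were read from a list of 34 by role, of which 17 passed the 50 CPM floor in the class. In Enl-T1 over Enl-WT, 15 of the 17 were at least 2-fold lower and 0 higher, against 17.1% and 5.52% of all genes, with a median log2 ratio of -2.70 against -0.24. The floor is again on the mean of the libraries. Genes such as *Mep1b* (151 CPM in Enl-WT, 0 in Enl-T1) passed through their Enl-WT level, so counts of listed genes against Enl-WT are a description. The endocytosis partners of the receptors were lower in 4 of 4 (ratios 0.10 to 0.358), the scaffolds in 3 of 3 and the peptidases in 5 of 6. *Mep1b*, the beta subunit of meprin, had 253 UMIs in Enl-WT and 0 in Enl-T1, and *Anpep*, aminopeptidase N, had a ratio of 0.0604 (0.0163 to 0.156). *Enpep*, glutamyl aminopeptidase, was the least reduced, at 0.623 (0.449 to 0.846).

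In Enl-T1 TDI-11055 over Enl-T1, 4 of the 17 listed genes were at least 2-fold higher and 1 lower, against 3.53% and 2.26% of all genes, with a median log2 ratio of 0.56 with zero counts at their bound, against 0.03. The 4 genes had from 0 to 16 UMIs in Enl-T1. Over all kept cells 28 listed genes passed the 1 CPM floor. Of these, 7 were at least 2-fold higher and 5 at least 2-fold lower, against 2.16% and 7.59% of 14009 genes. The median of the 28 genes was -0.036 against -0.05 for all genes. Both floors took in the Enl-WT level, so the counts of listed genes in either set of cells are a description. *Ggt1*, gamma-glutamyltransferase, was 3.39-fold higher (1.80 to 7.06, 81 against 11 UMIs), and *Mep1b*, counted among the 4, had 1 UMI against 0, which does not separate the libraries. The lowest ratio was that of *Slc2a2*, the glucose transporter GLUT2, at 0.422 (0.169 to 1.04), with an interval that holds 1. In Enl-T1 TDI-11055 over Enl-WT, 15 of 17 were at least 2-fold lower, against 18.7% of all genes, among them *Mep1b* (0.00848) and *Slc2a2* (0.115), while *Enpep* (0.573) was not, and the median log2 ratio was -1.90.

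The genes outside all lists whose pattern was most like the sum of the 9 were found over 27 profiles of class and library, which share libraries and depth. They were *Slc47a1* (a transporter of organic cations, Pearson r = 0.937), *Folr1* (the folate receptor alpha, 0.937), *Eps8* (0.931), *Cryz* (0.925), *Cpox* (0.919), *Rida* (0.918), *Steap2* (0.917), *Spink1* (0.912), *Slc39a5* (0.906) and *Fut9* (0.904). The 9 genes themselves correlated with their sum from 0.739 (*Slc3a1*) to 0.981 (*Fxyd2*), which is itself part of that sum. In proximal tubule-like cells, 9 of these 10 genes had ratios of Enl-T1 TDI-11055 over Enl-WT (0.283 to 0.631) above those of all 9 genes, of which the highest was 0.207. *Spink1* was at 226 CPM in Enl-WT, 25.1 CPM in Enl-T1 and 141 CPM in Enl-T1 TDI-11055. The exception was *Fut9*, at 775, 61.3 and 47.4 CPM.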

How the data were processed

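Kidneys of E15.5 embryos were profiled in 3 libraries, 1 per group. The deposited matrices hold raw UMI counts, which the authors made with Cell Ranger 6.1.2 on mm10, without a later filter or a correction for free RNA. Multi-mapping and strand settings are not given in the sources used here. Counts were summed per class and library and given as CPM with exact Poisson intervals, ratios with exact intervals (conditional binomial), and shares with exact Clopper-Pearson intervals, all at 95%. The floor against zero counts was 3 UMIs. No test was run and 0 columns were left unused.

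Integration used anchors in Seurat 5.3.0 (R 4.3.3) on 2000 variable genes, without the 9 genes, the other listed proximal tubule genes and technical genes, with clustering on 30 components at resolution 0.5, and of nephron cells on 20 components at resolution 0.8. A cluster took the class with most markers among its 10 leading genes, then the highest mean fold, and stayed unnamed with fewer than 3 markers detected in 10% of its cells. These thresholds were set after clusters had been seen, no cell annotation was used, and rebuilt names alone may make values differ from the study. Doublets were left in. Scrublet (scanpy 1.11.5) marked 125 kept cells of Enl-WT, 45 of Enl-T1 and 3 of Enl-T1 TDI-11055. The last share lies under 0.5%, a sign that the caller failed, and the 142 highest scores were removed there in the alternative.

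Named are the 9 genes, the 2 largest ratios in each direction among listed genes for each comparison, and the 10 genes most like the sum of the 9 (log2(CPM + 10), profiles of at least 20 cells). Some genes that this rule names are not reported here. Other genes singled out were chosen after their values were seen. The 9 genes and the lists were chosen with earlier results of these data known. Ratios and intervals were tested on simulated counts. Gene models had no same-strand exon overlap with any of the 9 genes.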

Additional observations from a re-analysis of the deposited data

Results flagged for a closer look

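Barcodes with at least 1000 genes but over 10% mitochondrial UMIs were left out of the report, yet in Enl-WT they were rich in the 9 genes. Their summed level was 3116 CPM in these barcodes against 386 CPM in the kept cells, a ratio of 8.08 (7.84 to 8.32), and they held 32.8% of all UMIs of the 9 genes in that library. *Fxyd2* was at 1215 CPM, *Lrp2* at 457 CPM and *Slc34a1* at 379 CPM in these Enl-WT barcodes. In Enl-T1 the summed level was 30.5 against 20.6 CPM, a ratio of 1.48 (1.18 to 1.83), with 5.91% of the UMIs. The ratio in Enl-T1 TDI-11055, 1.22 (0.862 to 1.69), did not exceed 1 beyond counting error. With the limit at 20%, 64 of 319 added cells (20.1%) were proximal tubule-like in Enl-WT, 1 of 215 (0.465%) in Enl-T1 and 0 of 47 in Enl-T1 TDI-11055. The 10% limit thus removed proximal tubule-like cells mostly from Enl-WT. The cause was not tested.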

How the results depend on the processing

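No difference of at least 2-fold changed direction under the alternatives run. The order of the proximal tubule-like share (Enl-WT, then Enl-T1 TDI-11055, then Enl-T1) held in 8 of 8 alternatives, and that of cells with at least 3 genes in 7 of 7. The share moved with the mitochondrial limit at 20% (Enl-WT 13.9%), without an upper gene limit (Enl-WT 6.79%, Enl-T1 0.530%, Enl-T1 TDI-11055 1.40%), with doublets removed (Enl-WT 15.4%, Enl-T1 TDI-11055 8.29%), at resolution 1.2 (15.2% and 8.36%) and in male cells (Enl-T1 0). The median log2 ratio in the class, here with ratios on 0 UMIs ranked as extremes, moved without an upper gene limit from -4.24 to -3.21 for Enl-T1 over Enl-WT. That of the treated over the untreated mutant, 0.88, ranged from 0.83 to 1.74 over 10 alternatives, the highest in female cells. That of Enl-T1 TDI-11055 over Enl-WT moved to -1.81 without an upper gene limit, -4.90 in male cells, -2.41 in female cells and -2.03 in *Sult1d1*-led cells. Over all kept cells the 20% limit gave -5.17 for the untreated and -4.34 for the treated mutant over Enl-WT, and 1 gene was at least 2-fold lower in Enl-T1 TDI-11055 than in Enl-T1 both without an upper gene limit and in male cells. Cells with at least 3 genes were 4.71% of Enl-WT at the 20% limit, 5.63% thinned to 4000 UMIs, and 5.71%, 0.434% and 1.56% of the 3 libraries unthinned. At least 2 genes gave 5.14% in Enl-WT and 1.13% in Enl-T1 TDI-11055, and at least 4 gave 2.96% in Enl-WT. A 200 CPM floor on the mean level in the class left 5 of the 9 genes, and 696 genes in all. These 5 were at least 2-fold lower in each mutant library than in Enl-WT. The share of the 696 was 12.1% for the untreated and 11.8% for the treated mutant. Of the 5, only *Fxyd2* exceeded 200 CPM in a mutant library (217 CPM untreated, 332 CPM treated). *Lrp2*, *Pdzk1*, *Mep1a* and *Ttc36* passed through their Enl-WT level, so this count is a description and not a check. The split into *Osr2*-led and *Sult1d1*-led cells and the 1 CPM floor over all kept cells were chosen after seeing the data. The causes were not tested. Male cells gave no ratio with Enl-T1 in the class, which has no such cell there, and without an upper gene limit the 7 cells of Enl-T1 in the class were too few for an order of classes. No paired analysis was possible because each group is 1 library and the labels give no replicate numbers. In the 31 cells of Enl-T1, 7 of the 9 genes had under 20 UMIs, which limits the comparison of the mutant libraries. Intervals cover counting error only and leave out variation between embryos.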
